A study of Mus musculus with 121 samples.

Results

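The maturation of the young adult cortex was followed here in the entorhinal cortex of wild-type (WT) mice of the rTg4510 line, by comparing RNA-seq counts of 8 mice aged 4 months with those of 7 mice aged 2 months. These 15 mice were chosen by genotype and age from the labels alone, and they are 15 of the 121 samples of the series and 15 of the 59 mice of the line. The rTg4510 line is a model of tau pathology in which a human tau transgene with the P301L mutation is switched on in forebrain neurons by a tetracycline transactivator (tTA) under the CaMKIIα promoter. The WT mice are littermates that carry neither the tau responder nor the tTA effector, and all mice were female on a mixed background of 129S6/SvEvTac and FVB/NCrl. Each sample is the left entorhinal cortex of 1 mouse, a region that gates the traffic between neocortex and hippocampus. Mice are named by their age and the letter of their label. The comparison asks what goes on changing in the tissue between young and mature adulthood, in the absence of the transgenes. All 59 mice of the line were fitted together. Beside these 15 they were WT mice aged 6 and 8 months, and transgenic (TG) mice aged 2, 4, 6 and 8 months. TG mice carry both the tau responder and the tTA effector. Contrasts with the later ages and in TG mice are given below.

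In the cortex of a young adult mouse, oligodendrocyte precursors (OPCs) still divide and give rise to newly formed oligodendrocytes, which pass through a short premyelinating stage before they wrap axons with myelin. Over the same weeks the extracellular matrix settles: fibrillar collagens belong to the meninges and large vessels, type IV collagen and laminins form the basement membrane around vessels, and perineuronal nets close around inhibitory neurons. Most synapses have formed by then, and the proteins of immature neurons have fallen to a low adult level.

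Library totals ran from 8900854 to 17277764 assigned counts at 2 months (median 12484486) and from 10759159 to 23429968 at 4 months (median 12348400), and the mean totals were not separated by an exact permutation test over all 6435 splits of the mice (two-sided p = 0.647). The tissue carried the marker of cortical excitatory neurons, the vesicular glutamate transporter Slc17a7, at 457 to 654 RPKM, a level that takes gene length and library size into account, while Kcne2 of the choroid plexus stayed at or below 0.195 RPKM and Ttr, made by the same epithelium, ran from 0.284 to 41.8. A principal component analysis of the 15 libraries gave components with 29.6% and 22.9% of the variance over 13112 genes. The 2-month mouse P stood apart on the latter, at 47.8, with all other mice between -13.9 and 8.15. On the former, the 4-month mice T, S, L and P were among the lowest and the 4-month mouse Q was the highest at 29.4.

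No gene passed a false discovery rate (FDR) of 0.05 between 4 and 2 months in WT mice. The edgeR quasi-likelihood test called 0 of 18943 genes (0%), with 1372 at an unadjusted p under 0.05, of which 541 were higher (2.86% of genes tested) and 831 lower at 4 months (4.39%). Without the 4-month mouse Q, 934 were higher and 1307 lower at that threshold. Without that mouse and the 2-month mouse P, a setting added after seeing the data, the numbers were 1282 and 1369. The DESeq2 Wald test called 2 genes, Pdia4 and Ccnd2, both lower. The smallest FDR in the edgeR test was 0.107, for Pdia4. This fit shares 1 estimate of the spread over the 59 mice of the line, and the smallest FDR was 0.45 when the 30 WT mice were fitted alone and 0.955 with the 15 WT mice of this comparison alone, so the FDR values below hold for the joint fit. Values below are therefore levels and differences with their errors, and a member that meets only the unadjusted threshold is described as lower or higher, not as changed. Levels are counts scaled to the normalised library size (CPM), and differences are log2 fold changes, 4 months minus 2 months, so that a negative value is a lower level at 4 months. The median over all genes tested was -0.01, and 52.7% of their differences were negative. The gene lists below were chosen with earlier results of these data known, so their shares are descriptions and not tests.

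**Figure D1:**
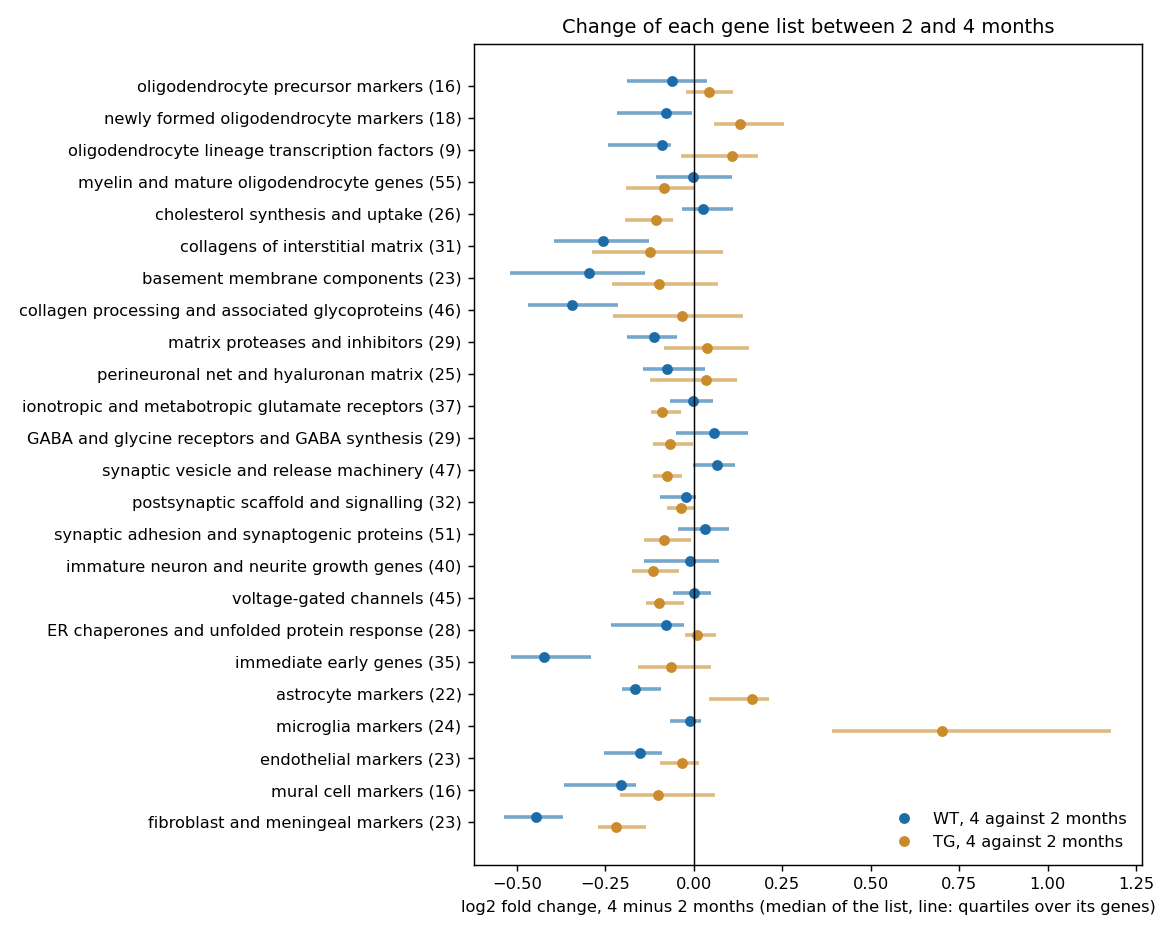
Median log2 fold change from 2 to 4 months for each gene list (points) with the quartiles over its members (lines), in WT and in TG mice. In WT mice the matrix, mural and fibroblast lists and the immediate early genes lie below 0, with medians from -0.08 to -0.45, while the myelin and synaptic lists lie within 0.07 of 0.

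In the oligodendrocyte lineage, a minority of the genes of its early stages were lower at 4 months, while the myelin genes were split evenly around 0. Of 16 OPC markers, 4 were lower and 1 higher at an unadjusted p under 0.05 (25% and 6.25%, beside 4.39% and 2.86% of all genes), with a median of -0.06. Of 18 markers of newly formed oligodendrocytes, 3 were lower and 0 higher, with 14 of 18 differences negative and a median of -0.08. Of 9 transcription factors of the lineage, 8 had negative differences and 1 was lower at that threshold. Of 55 myelin genes, 4 were higher and 0 lower, and their differences were split between 28 negative and 27 positive with a median of 0.00. The myelin count moved with single mice, to 0 higher without the 4-month mouse P, 1 without the 4-month mouse K, 2 without the 2-month mouse M or P or the 4-month mouse L, and 1 with the RNA integrity number in the model. It was 6 without the 2-month mouse T. The count of newly formed markers was 1 without the 2-month mouse T. That of the transcription factors was 0 without the 2-month mouse K or T or the 4-month mouse K, P or T, and 2 without the 2-month or the 4-month mouse Q. The OPC median ran from -0.03 without the 2-month mouse K to -0.12 without the 4-month mouse M. That of newly formed markers ran from -0.05 without the 2-month mouse T to -0.14 without the 4-month mouse M. With the endothelial marker level in the model, an alternative chosen after seeing the data, the median was 0.00 for OPC markers and -0.04 for newly formed markers, with 2 of the latter lower, and 0.10 for myelin genes, with 5 higher. None of these genes passed an FDR of 0.05 in this comparison. In bulk tissue, fewer cells of a type and less RNA per cell cannot be told apart.

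Pdgfra, the growth factor receptor that defines OPCs, ran from 102 to 196 CPM at 2 months (median 121) and from 97.3 to 168 CPM at 4 months (median 133). The groups overlapped over nearly their whole range, and the 2-month mouse K was above all others at 196 CPM. The difference was 0.03 (SE 0.09, FDR = 0.958), and it was -0.03 without the 2-month mouse P and the 4-month mouse Q. Xylt1, which starts the sugar chains of chondroitin sulfate proteoglycans, went from a median of 44.8 CPM to 37.1 CPM, with a difference of -0.23 (SE 0.074, FDR = 0.421). The protocadherin Pcdh15 had medians of 35.9 and 26.3 CPM and a difference of -0.35 (SE 0.13, FDR = 0.548). The matrix genes Emid1 and Matn4, which are also expressed by OPCs, differed by -0.40 and -0.27, with 5 and 4 of the 8 mice at 4 months below every mouse at 2 months.

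Gpr17, a receptor made in the premyelinating stage that holds back the last step of differentiation, had the clearest age course of the lineage. Its level ran from 114 to 183 CPM at 2 months (median 147) and from 98.1 to 148 CPM at 4 months (median 110). At 4 months, 5 of 8 mice lay below the lowest 2-month mouse, while S, M and Q, at 119.9, 145 and 148 CPM, lay within the 2-month range. The difference was -0.29 (SE 0.089, FDR = 0.421). The mean was lower at each later age, from 144 ± 23.7 (SD, n = 7) at 2 months through 118 ± 18.5 (n = 8) and 97.2 ± 8.51 (n = 7) to 72.3 ± 9.58 CPM (n = 8) at 8 months. Between 4 and 8 months Gpr17 fell by 0.71 on the log2 scale (SE 0.087, FDR = 6.86e-07), one of only 2 genes called there (0.0106% of those tested). The other was 8430408G22Rik, which rose by 1.75 (SE 0.31, FDR = 0.00355).

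The remaining markers of new oligodendrocytes differed less firmly. Enpp6, a choline phosphodiesterase of the cells that start to myelinate, ran from 2.17 to 7.95 CPM at 2 months and from 2.51 to 5.82 CPM at 4 months, a difference of -0.41 (SE 0.22, FDR = 0.697). Bmp4, a ligand that limits differentiation, had medians of 7.71 and 5.32 CPM, with the highest value of both ages, 13.3 CPM, in a 4-month mouse. Cnksr3 differed by -0.31 (SE 0.13) and the sialidase Neu4 by -0.10 (SE 0.10). Among the transcription factors, Zfp488 was lower by 0.32 (SE 0.15, FDR = 0.648), while Olig2, Sox8 and Sox10 had differences of -0.09, -0.17 and -0.04. The sign of the Sox10 difference changed with the endothelial marker level in the model, to 0.05.

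Mbp, the basic protein that compacts myelin, ran from 629 to 1267 CPM at 2 months (median 732) and from 580 to 1378 CPM at 4 months (median 892). Both ages covered the same range, with the lowest and the highest mouse both at 4 months, T and K. Its difference was 0.11 (SE 0.20, FDR = 0.923). Mog and Mag, adhesion proteins on the outer and inner face of the sheath, differed by -0.09 (SE 0.22) and -0.11 (SE 0.23), and with the endothelial marker level as a covariate by 0.06 and 0.03. The 95% interval of the Mbp difference ran from -0.30 to 0.51 so that smaller differences of either sign could not be placed. The mean of Mbp was 848 ± 234 at 2 months, 915 ± 237 at 4 months, 1296 ± 557 at 6 months and 1197 ± 161 CPM at 8 months.

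The 4 myelin-list members above the unadjusted threshold are not structural myelin proteins of high abundance. Omg, a glycoprotein that neurons also make, had medians of 125 and 141 CPM (difference 0.15, SE 0.063). Il33, a nuclear cytokine of mature oligodendrocytes and astrocytes, had medians of 33.6 and 43.2 CPM (difference 0.31, SE 0.14), and the 2-month mouse P held its lowest value at 13.2 CPM. Without that mouse the difference of Il33 was 0.17 (FDR = 0.648). Ninj2 and the protease Klk6 stayed near or below 1.30 CPM in every mouse, with differences of 0.84 (SE 0.35) and 1.04 (SE 0.51). For Klk6, 5 of 8 mice at 4 months lay above every mouse at 2 months, at levels close to the counting floor. Of 26 genes of cholesterol synthesis and uptake, which supply the myelin membrane, 2 were higher and 0 lower, with a median of 0.03. The number higher was 6 without the 2-month mouse K, 5 without the 4-month mouse Q, and 1 without the 2-month mouse P or the 4-month mouse L or T. Acat2, an enzyme at the entry to the pathway, was among the higher ones, with medians of 37.3 and 42.0 CPM (difference 0.14, SE 0.056, FDR = 0.608). Fdps differed by 0.13 and Hmgcs1, an early enzyme of the pathway, by 0.07.

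**Figure D2:**
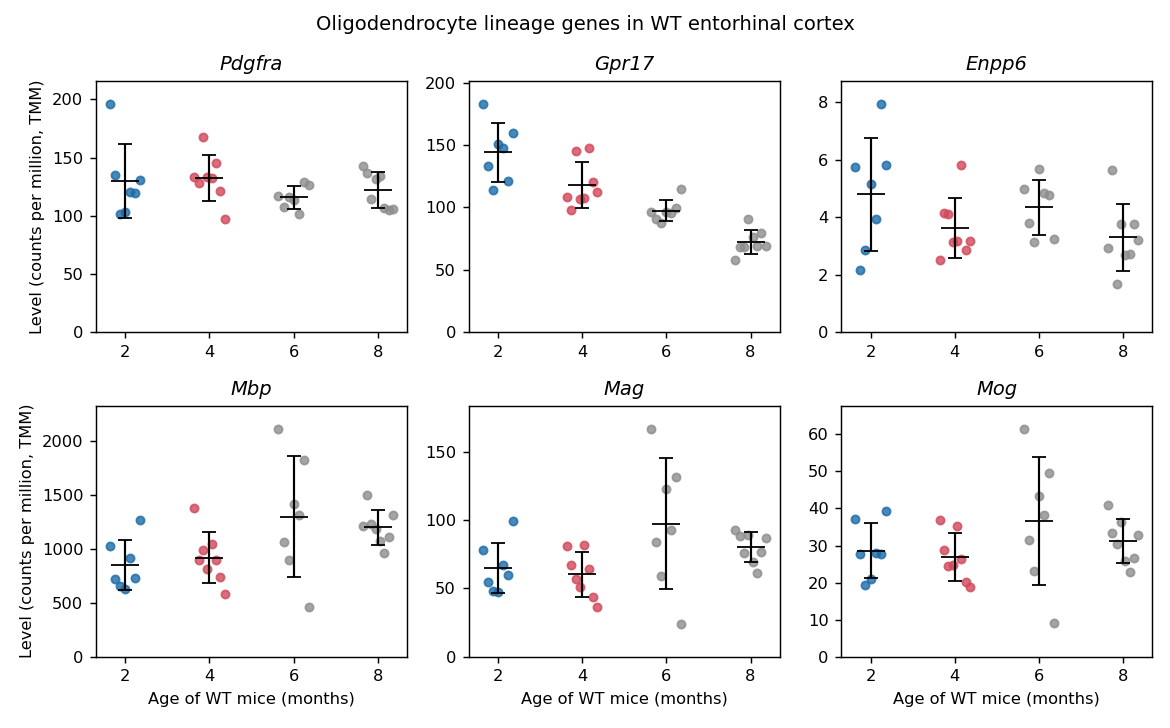
Level in CPM of 6 genes of the oligodendrocyte lineage in each WT mouse by age from 2 to 8 months (points), with the mean and SD of each age. Gpr17 steps down from a mean of 144 to 118, 97.2 and 72.3 CPM, while Mbp shows a wide spread at every age.

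Most members of the extracellular matrix lists had negative differences. Of 23 basement membrane components, 13 were lower and 1 higher at an unadjusted p under 0.05 (56.5% and 4.35%), and 20 differences were negative with a median of -0.30. Of 46 genes of collagen processing and matrix glycoproteins, 19 were lower and 1 higher (41.3% and 2.17%), 43 differences were negative and the median was -0.35. Of 31 interstitial collagens, 4 were lower and 26 had negative differences, with a median of -0.26. Of 29 matrix proteases and inhibitors, 4 were lower (13.8%), with a median of -0.11. The counts moved with single mice. Those of the basement membrane were 7 lower without the 2-month mouse K and 8 without the 2-month mouse Q, and those of collagen processing 12 without the latter. For the interstitial collagens they were 2 without either of these mice, 6 and 7 without the 2-month mice P and M, and 12, with a median of -0.43, without the 4-month mouse Q, and 14 without that mouse and the 2-month mouse P. For the proteases they were 7 without the 2-month mouse M or the 4-month mouse Q. Of all 18943 genes 831 were lower with all mice, against 1307 of 18932 without the 4-month mouse Q. Without that mouse and the 2-month mouse P the number was 1369 of 18921. With the 2-month mouse K, Q or M left out it was 642, 738 or 1104. No member of these lists passed an FDR of 0.05 between 2 and 4 months.

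Markers of the cells that make this matrix had mostly negative differences. At an unadjusted p under 0.05, 31.2% of mural, 8.7% of fibroblast and meningeal and 17.4% of endothelial markers were lower. The share of all genes was 4.39%. All 16 mural cell markers had negative differences, 5 of them at an unadjusted p under 0.05, with a median of -0.21, and their summed level ran from 293 to 594 CPM at 2 months and from 252 to 514 CPM at 4 months. Of 23 fibroblast and meningeal markers, 22 were negative and 2 passed that threshold, with a median of -0.45 and sums of 2342 to 5550 against 1224 to 3973 CPM. That list shares Col1a1, Col1a2, Col3a1 and some small proteoglycans with the matrix lists, while the endothelial list shares no gene with them. The fibroblast list also shares Pdgfra with the OPC markers, and the mural list shares Cspg4 with the OPC markers. Of 23 endothelial markers, 21 were negative and 4 passed it, with a median of -0.15 and sums of 697 to 1396 against 699 to 1272 CPM. Acta2 of smooth muscle differed by -0.90 (SE 0.31) and Vtn of pericytes by -0.39 (SE 0.18), and the endothelial Pecam1 and Cdh5 by -0.27 and -0.31. The 9 blood cell genes tested had a median of -0.94 at summed levels of 1.45 to 50.9 CPM, and of -0.46 both with edgeR's own filter, which left 3 of them, and with the endothelial level in the model. The 5 mice with the lowest endothelial level were 3 at 4 months (L, S and T) and 2 at 2 months (M and S), and 4 of the 5 lowest in basement membrane genes were among them. With the endothelial level of each mouse in the model, an alternative chosen after seeing the data, the medians were -0.18 for basement membrane (8 lower, 1 higher), -0.24 for collagen processing (13 lower) and -0.21 for interstitial collagens (2 lower). With single mice left out, the number lower ran from 1 without the 2-month mouse Q to 8 without the 4-month mouse Q for mural markers, and from 0 without the 2-month mouse K to 13 without the 4-month mouse Q for endothelial markers. For fibroblast markers it ran from 0 without the 2-month mouse Q to 6 without the 2-month mouse S. What share of the matrix differences comes from the amount of vessel or meninges in the dissected piece was not tested beyond these values.

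Col4a1, a chain of the collagen network of every basement membrane, ran from 48.8 to 80.8 CPM at 2 months (median 67.6) and from 30.4 to 69.3 CPM at 4 months (median 41.5). At 4 months, 6 of 8 mice lay below every mouse at 2 months, and only O and Q lay within the earlier range. The difference was -0.56 (SE 0.13, FDR = 0.238, and 0.0266 without the 4-month mouse Q). Col4a5, another chain of the network, differed by -0.67 (SE 0.21), the proteoglycan perlecan, Hspg2, by -0.50 (SE 0.17), and the laminin chains Lamc3 and Lamc1 by -0.52 (SE 0.18) and -0.23 (SE 0.082).

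Serpinh1, the collagen chaperone HSP47, ran from 18.3 to 40.8 CPM at 2 months (median 29.8) and from 13.6 to 27.4 CPM at 4 months (median 16.6), a difference of -0.70 (SE 0.17, FDR = 0.238). Here 4 of the mice at 4 months lay below every mouse at 2 months. The prolyl hydroxylase subunit P4ha1 differed by -0.28 (SE 0.068, FDR = 0.238), the lysyl hydroxylase Plod2 by -0.49 (SE 0.16) and the cross-linking enzyme Loxl2 by -1.17 (SE 0.31). Loxl2 was low, at 0.662 to 3.05 CPM at 2 months and 0.0739 to 1.04 CPM at 4 months. Fibronectin, Fn1, went from a median of 226 to 158 CPM (difference -0.46, SE 0.16), and Sparc, a collagen-binding glycoprotein of vessels and glia, from 403 to 332 CPM (difference -0.22, SE 0.11).

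The fibrillar collagens of the meninges and large vessels that are named here had negative differences. Col3a1 ran from 9.80 to 36.9 CPM at 2 months (median 13.98) and from 4.42 to 14.5 CPM at 4 months (median 8.66), a difference of -1.05 (SE 0.38, FDR = 0.531), with 6 of 8 mice at 4 months below every mouse at 2 months. Col1a1 and Col1a2, the chains of type I collagen, differed by -0.70 (SE 0.36) and -0.67 (SE 0.35). Col5a2, Col12a1 and Col6a3 had differences of -0.64, -0.59 and -0.33. Among proteases, Adamts1, which cleaves versican and aggrecan, was lower by 0.43 (SE 0.12, FDR = 0.294), with 6 of 8 mice at 4 months below the 2-month range. The gelatinase Mmp9 differed by -0.58 (SE 0.21), the membrane protease Mmp14 by -0.36 (SE 0.14), and the tissue plasminogen activator Plat by -0.25 (SE 0.088).

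Matrix is also made by neurons and glia. Of 25 genes of perineuronal nets and hyaluronan, 5 were lower and 0 higher (20%, beside 4.39% of all genes lower), with a median of -0.08. Tnc, a glycoprotein of astrocytes and of growing tissue, went from a median of 23.8 to 15.7 CPM (difference -0.48, SE 0.16, FDR = 0.479), and 9930013L23Rik, the hyaluronan-degrading Cemip, from 60.6 to 45.1 CPM (difference -0.33, SE 0.11). The sulfotransferases Chst3 and Chst11, which decorate chondroitin chains, differed by -0.38 and -0.15. The proteins that build the net itself did not pass the threshold: Acan, its core proteoglycan, ran from 3.54 to 7.22 CPM at 2 months and from 3.58 to 7.82 CPM at 4 months, with a difference of 0.11 (SE 0.16). The link protein Hapln1 differed by -0.14 (SE 0.087). Hapln4, the link protein of nets around inhibitory neurons, differed by 0.00 (SE 0.12), and by 0.19 without the 2-month mouse P, at 190 CPM far above the other 2-month mice, and the 4-month mouse Q.

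**Figure D3:**
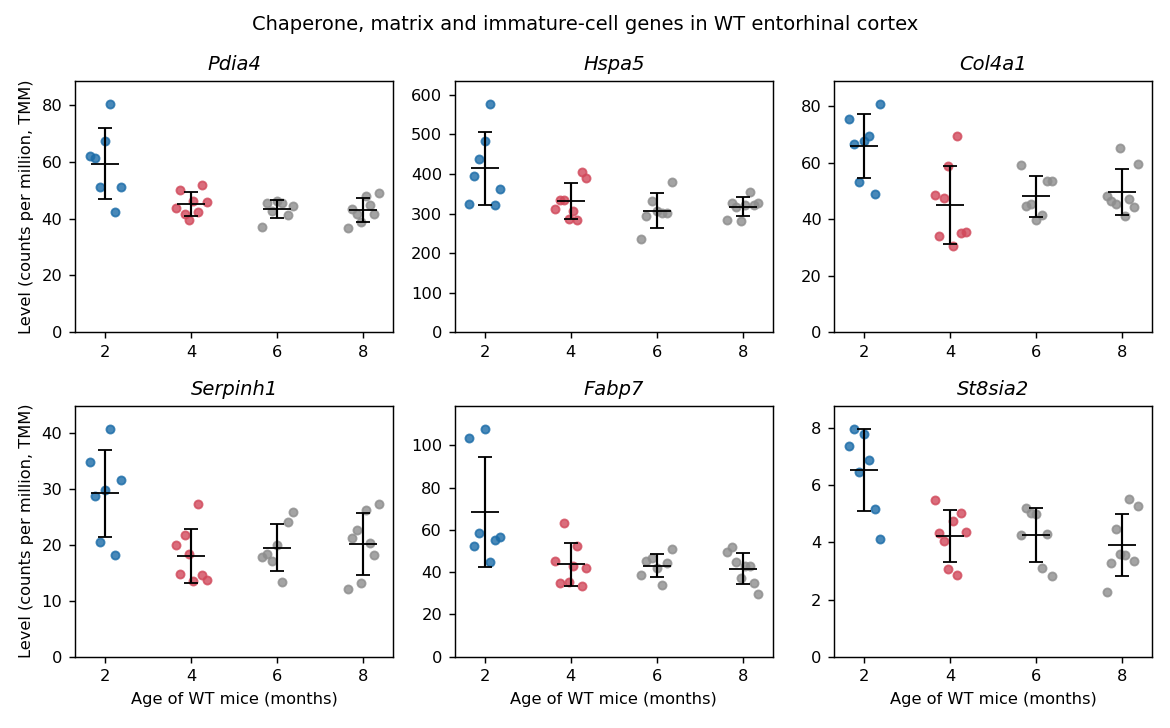
Level in CPM of Pdia4, Hspa5, Col4a1, Serpinh1, Fabp7 and St8sia2 in each WT mouse by age from 2 to 8 months (points), with the mean and SD of each age. In all 6 genes the mean is highest at 2 months, and for Pdia4 it goes from 59.3 to 45.1, 43.3 and 43.0 CPM. All 6 were called lower at the later ages together against 2 months, so this shared pattern is not separate support.

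Synaptic genes were close to level between the ages. Of 37 glutamate receptor genes, 1 was higher and 0 lower (2.70%), with a median of 0.00. Of 29 genes of GABA and glycine receptors and GABA synthesis, 1 was higher and 21 differences were positive, with a median of 0.06. Of 47 genes of synaptic vesicles and release, 2 were higher and 1 lower, and 35 differences were positive with a median of 0.07. Of 32 postsynaptic scaffold genes and 51 synaptic adhesion genes, 1 each was higher, 0 and 2 were lower, and the medians were -0.02 and 0.03. Without the 2-month mouse P and the 4-month mouse Q, left out after seeing the data, 13 vesicle genes and 8 adhesion genes were higher at an unadjusted p under 0.05, and the vesicle median was 0.12. The vesicle count was 0 without the 4-month mouse L and 9 without the 4-month mouse Q alone. Over all genes, 541 of 18943 were higher with all mice, 424 without the 4-month mouse L and 934 without the 4-month mouse Q. Without the latter and the 2-month mouse P the number was 1282 of 18921. The postsynaptic median was 0.07 without the 2-month mouse P, with 3 genes higher and 0 lower, and 5 adhesion genes were higher and 4 lower without that mouse. Of all genes, 755 were then higher and 1020 lower.

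Among NMDA receptor subunits, Grin2b, prominent in immature synapses and still present in adults, ran from 64.4 to 101 CPM at 2 months. At 4 months it ran from 54.0 to 103 CPM, with a difference of -0.04 (SE 0.19, FDR = 0.983). Grin2a, which replaces it in part as synapses mature, had medians of 33.3 and 31.7 CPM and a difference of -0.12 (SE 0.15), and Grin3a differed by -0.01 (SE 0.093). With the RNA integrity number as a covariate the differences of Grin2a, Grin2b and Grin3a were 0.01, 0.11 and 0.03. The AMPA receptor auxiliary protein Cnih3 had the smallest p of the list, with medians of 126 and 154 CPM and a difference of 0.22 (SE 0.11, FDR = 0.687).

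Of the GABA A receptor subunits, Gabra2 differed by 0.07 (SE 0.099), and Gabra5 had medians of 88.2 and 109 CPM (difference 0.27, SE 0.16). The sign for Gabra2 turned with the endothelial covariate, to -0.01. The glycine receptor subunit Glra3 was higher by 0.59 (SE 0.25, FDR = 0.622), at 2.46 to 8.21 CPM against 4.04 to 13.1 CPM. Syp, a membrane protein of synaptic vesicles, ran from 1561 to 1777 CPM at 2 months and from 1514 to 2069 CPM at 4 months, with 5 of 8 mice above the 2-month range (difference 0.14, SE 0.067). Rims2, a scaffold of the release site, had 7 of 8 mice at 4 months above every mouse at 2 months, though by little: 137 to 158 against 128 to 143 CPM (difference 0.13, SE 0.060). Rims4 differed by -0.22, the scaffold Dlgap1 by 0.10 and the adhesion proteins Nlgn1 and Ntng2 by 0.22 and -0.27.

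The one gene of the synaptic lists with an FDR below 0.3 was set by a single library. Cbln2, a secreted organiser of synapses, lay between 11.7 and 15.6 CPM in 6 of the mice at 2 months and at 73.6 CPM in mouse P, and between 10.5 and 13.5 CPM at 4 months. The difference was -0.85 (SE 0.22, FDR = 0.281), and -0.16 (FDR = 0.651) without mouse P.

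Genes of immature neurons and neurite growth lay on both sides of 0. Of 40, 2 were higher and 3 lower (5% and 7.5%, beside 2.86% and 4.39% of all genes), with a median of -0.01. Without the 2-month mouse P, 3 were higher and 9 lower, where 755 and 1020 of all genes were. Dcx and Sox11, marks of newborn neurons, differed by -0.06 (SE 0.12) and -0.19 (SE 0.12). Sox4, a partner of Sox11, was lower by 0.36 (SE 0.12, FDR = 0.497). St8sia2, the enzyme that puts polysialic acid on NCAM in the developing brain, ran from 4.11 to 7.99 CPM at 2 months and from 2.87 to 5.48 CPM at 4 months (difference -0.61, SE 0.16, FDR = 0.256). Fabp7, the fatty acid binding protein of radial glia and young astrocytes, ran from 44.7 to 108 CPM at 2 months (median 56.6) and from 33.6 to 63.1 CPM at 4 months (median 42.4). Its highest values, 104 and 108 CPM, were in the 2-month mice K and P, and 5 of 8 mice at 4 months lay below every mouse at 2 months (difference -0.64, SE 0.16, FDR = 0.238). Gap43 and Stmn4, proteins of growing axons, lay on the other side. Gap43 had medians of 341 and 378 CPM, with 6 of 8 mice at 4 months above the 2-month range (difference 0.24, SE 0.086, FDR = 0.529), and Stmn4 differed by 0.13 (SE 0.062).

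Of 45 voltage-gated channels, 3 were lower and 1 higher, with a median of 0.00, and the share lower, 6.67%, was near the 4.39% of all genes. The 3 that were lower were the calcium channel subunits Cacna1g, Cacna1i and Cacna1h, with differences of -0.29 (SE 0.097), -0.24 (SE 0.086) and -0.33 (SE 0.14). None of them passed an FDR of 0.05. The higher one was the potassium channel Kcna4, at 0.26 (SE 0.10). Of 25 interneuron markers, 0 passed an unadjusted p under 0.05 in either direction by edgeR, and Pvalb, the calcium buffer of fast-spiking cells, had medians of 34.6 and 36.1 CPM (difference -0.01, SE 0.20). Mouse P at 2 months held its highest value, 57.7 CPM, and the sign of the difference changed in 9 of the 27 alternatives.

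Chaperones of the endoplasmic reticulum (ER) held the gene with the smallest p. The unfolded protein response matches the folding capacity of the ER to the load of secreted and membrane proteins, and its transcription factors ATF6 and XBP1 bind an element of the promoters of chaperones, the ER stress response element. Of 28 genes of the list, 8 were lower and 0 higher at an unadjusted p under 0.05 (28.6%, beside 4.39% of all genes lower). Of their differences 23 were negative, and the median was -0.08. Pdia4, a protein disulfide isomerase, ran from 42.2 to 80.4 CPM at 2 months (median 61.3) and from 39.4 to 51.8 CPM at 4 months (median 44.8). The 2-month mice S, M and T, at 42.2, 51.1 and 51.1 CPM, lay inside the 4-month range, and mouse Q at 2 months was the highest. The difference was -0.39 (SE 0.078, FDR = 0.107). Without mouse S at 2 months the FDR of Pdia4 was 0.00126, and it also passed without the 2-month mouse M or T or the 4-month mouse S. Pdia4 did not pass in the other omissions of a single mouse. Over all genes, the smallest FDR was 0.377 without the 2-month mouse K, 0.244 without L and 0.195 without P.

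Hspa5, the chaperone BiP at the centre of the response, ran from 321 to 577 CPM at 2 months (median 395) and from 283 to 404 CPM at 4 months (median 322). At 4 months, 4 of 8 mice lay below every mouse at 2 months (difference -0.32, SE 0.092, FDR = 0.359). Dnajc3, a co-chaperone of BiP, differed by -0.23 (SE 0.059), the secreted factor Manf by -0.28 (SE 0.073), Herpud1 of ER-associated degradation by -0.23 (SE 0.068) and Xbp1 itself by -0.24 (SE 0.073). With the endothelial covariate the list kept a count of 8 lower and a median of -0.09.

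Promoters of this list were searched because chaperones of the ER share a known element. The element was written as CCAAT, 9 bases of any kind and CCACG, on both strands, in windows from 250 bases before to 50 bases after each gene start, and no other motif was searched. It is in 39 of 32851 promoters (0.119%) and in 8 of the 24 members that matched a promoter, which are Calr, Canx, Creld2, Dnajc3, Hsp90b1, Hspa5, Pdia6 and Syvn1. The stretches around the match of Hspa5 and Dnajc3 are shown as the members with a match that were called in the later-age comparison below, from RefSeq on GRCm38.p6, both on the plus strand, at chr2:34771985-34772083 and chr14:118937787-118937885, with the match in capitals.
Hspa5: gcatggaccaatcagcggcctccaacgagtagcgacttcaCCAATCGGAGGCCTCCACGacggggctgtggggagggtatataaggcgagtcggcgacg
Dnajc3: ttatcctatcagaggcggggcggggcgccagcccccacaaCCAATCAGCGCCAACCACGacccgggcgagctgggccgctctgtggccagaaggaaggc
The match of Hspa5 starts 65 bases before the gene start and that of Dnajc3 105 bases before it. These letters are not in the window of Pdia4.

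Immediate early genes, which neurons transcribe within minutes of activity, had mostly negative differences at 4 months. Of 35 differences, 34 were negative with a median of -0.42. At an unadjusted p under 0.05, 10 were lower and 0 higher (28.6%, beside 4.39% of all genes lower). Without the 2-month mouse P the median was -0.30, with 6 lower and 1 higher, and the number lower was 6 also without the 4-month mouse S and 17 without the 2-month mouse K or Q. Of all genes, 831 were lower with all mice, 1020 without the 2-month mouse P and 658 without the 4-month mouse S. The number was 642 without the 2-month mouse K and 738 without Q. Fosl2, a subunit of the AP-1 factor, ran from 58.6 to 102 CPM at 2 months (median 92.8) and from 36.1 to 73.8 CPM at 4 months (median 54.0). At 4 months, 5 of 8 mice lay below every mouse at 2 months (difference -0.59, SE 0.14, FDR = 0.238). The phosphatase Dusp4, the nuclear factor Csrnp1 and the kinase Sik1 differed by -0.42 (SE 0.13), -0.55 (SE 0.17) and -0.69 (SE 0.22). Of 14 genes of heat shock and cold response, 3 were lower and 1 higher. Without the 2-month mouse S 5 were lower, where 1061 of all genes were. The small heat shock protein Hspb1 differed by -0.73 (SE 0.20) and the cold-induced RNA-binding protein Cirbp by 0.22 (SE 0.083).

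**Figure D4:**
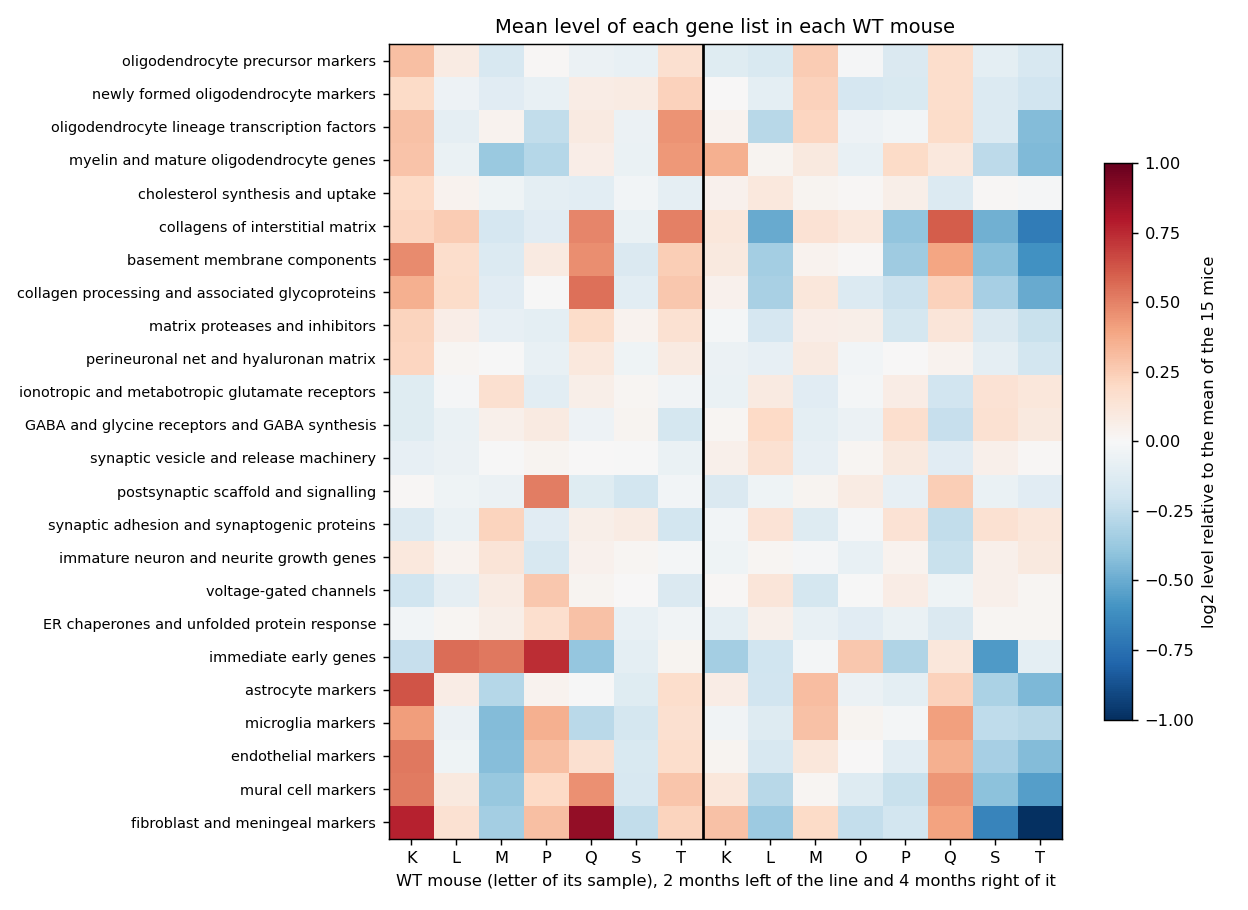
Mean level of each gene list in each of the 15 WT mice, as the deviation in log2 from the mean over the mice, 2-month mice on the left and 4-month mice on the right. The 4-month mice L, P, S and T are low in basement membrane and collagen processing genes, and the immediate early genes of the 2-month mice run from -0.39 to 0.74.

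Of 22 astrocyte markers, 1 was lower at an unadjusted p under 0.05 (4.55%, beside 4.39% of all genes), and 21 differences were negative with a median of -0.17. That count was 0 without the 2-month mouse K and 7 without the 2-month mouse M, where 642 and 1104 of all genes were lower. The 5 mice lowest in astrocyte markers were the 5 lowest in endothelial markers, and with the endothelial level in the model the median was -0.02. Gfap, the intermediate filament of astrocytes, ran from 208 to 352 CPM at 2 months and from 167 to 323 CPM at 4 months (difference -0.29, SE 0.21). Of 24 microglia markers, 0 passed that threshold in either direction by edgeR and the median was -0.01. Markers of cortical excitatory neurons had a median of 0.00 over 27 genes, and those of striatum and amygdala, and of thalamus, hypothalamus and cerebellum, 0.01 and 0.00. The median of 15 dentate and hippocampal markers was -0.28, and 0.00 without the 2-month mouse P and the 4-month mouse Q.

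The genes with the smallest p in each direction were read after their values were seen, since none was called. Among the higher ones, Tcfl5 ran from 0.116 to 0.637 CPM at 2 months and from 0.465 to 1.59 CPM at 4 months (difference 1.53, SE 0.37, FDR = 0.238). The dipeptidase Cndp2 ran from 46.2 to 55.3 CPM and from 53.1 to 63.2 CPM, with 6 of 8 mice at 4 months above the 2-month range (difference 0.21, SE 0.052). Setdb2, Trappc1, Gpr52, I830012O16Rik, Slamf9, Adck3, BC021891, Usp2 and 2310030G06Rik followed, with differences from 0.21 to 0.97. Only 1200009I06Rik kept the ages fully apart on the higher side, 1 of 18943 genes (0.00528%), at 0.993 to 1.40 CPM against 1.49 to 3.48 CPM. Among the lower ones, Ccnd2, a cyclin that drives entry into the cell cycle, ran from 103 to 157 CPM and from 89.3 to 113 CPM (difference -0.32, SE 0.068, FDR = 0.161). Ccnd2 passed an FDR of 0.05 without the 2-month mouse Q or T, but in no other omission of a single mouse. Without the 2-month mouse K no gene had an FDR below 0.377, and without L none had one below 0.244. Dll4, the Notch ligand of endothelial tip cells, went from a median of 5.03 to 2.13 CPM (difference -0.83, SE 0.20, FDR = 0.238). Fndc3b lay at 20.96 to 29.7 CPM and at 18.8 to 20.9 CPM without overlap, as did the microRNA row Mir541 at no more than 0.662 CPM, the 2 genes of this kind (0.0106%). Ceacam1 and the histone demethylase Kdm5c differed by -0.54 (SE 0.13) and -0.18 (SE 0.045).

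To see whether the 2-month level stood apart from adulthood as a whole, the 7 mice at 2 months were set against the mean of the WT mice at 4, 6 and 8 months. This contrast was added after seeing the data, and it shares all 2-month and 4-month mice with the comparison above, so it is no independent support for it. It called 23 genes (0.121%), 21 lower (0.111%) and 2 higher (0.0106%) at the later ages. With RNA integrity as a covariate 9 were lower and 1 higher, and with the 30 WT mice alone 8 and 3. DESeq2 called 42 lower and 12 higher. In the oligodendrocyte lineage Gpr17 fell by 0.62 (SE 0.072, FDR = 1.08e-07), and no other member of the lineage lists was called. In the ER, Pdia4 fell by 0.43 (SE 0.064, FDR = 5.51e-05), Dnajc3 by 0.26 (FDR = 0.00758), Hspa5 by 0.38 (FDR = 0.0081), and Uggt1, which checks the folding of glycoproteins, and Xbp1 by 0.17 and 0.26. In the matrix, Col4a1 fell by 0.47 (FDR = 0.0403), Serpinh1 by 0.60 (FDR = 0.0412) and Loxl2 by 1.14 (FDR = 0.036). Fabp7 fell by 0.67 and St8sia2 by 0.65, each at an FDR of 0.0076, and Ccnd2 by 0.32 (FDR = 0.00243).

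The other genes called were Gpx8, a peroxidase of the ER membrane, which fell by 0.82, Cbln2 at -0.87, Itih2, which binds hyaluronan, at -1.28, Olfr558 at -1.44, Zdbf2 at -0.45, Fndc3b at -0.30, Mpzl1 at -0.29, Lphn2 at -0.28 and Ankrd50 at -0.24, with 1200009I06Rik at 0.90 and Prss50 at 1.00 on the higher side. Cbln2 had an FDR of 0.567 without the 2-month mouse P. Hspa5 had an FDR of 0.134 without the 2-month mouse Q, and Serpinh1 and Col4a1 lost the call without any 1 of the 2-month mice K, L, P, Q or T. Serpinh1 lost it also without the 4-month mouse O or S. Gpr17, Pdia4, Ccnd2 and 1200009I06Rik kept theirs in all 26 alternatives run. The call held in 14 of the 26 for Xbp1, in 15 for Uggt1, Mpzl1 and Serpinh1, in 16 for Zdbf2, in 17 for Lphn2, in 18 for Itih2 and in 19 for Col4a1 and Olfr558, and for the remaining genes in 20 to 25. The number of calls was 10 without the 2-month mouse K, 11 without Q and 14 without L.

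Between 4 and 6 months 3 WT genes were called (0.0158%), Tctn1, B4galnt3 and Sytl1, all higher, where DESeq2 called 16 higher and 11 lower. With the letter as a block, or with RNA integrity or mapping as a covariate, Tctn1 alone was called, and with the 30 WT mice alone none of the 3 was. Between 6 and 8 months 0 were called (0%), where DESeq2 called 1. Levels of Pdia4 were 45.1 ± 4.21, 43.3 ± 3.24 and 43.0 ± 4.23 CPM at 4, 6 and 8 months, against 59.3 ± 12.5 CPM at 2 months, so that both its mean and its spread were larger in the youngest mice. The mean of Col4a1 was also highest at 2 months, while its SD was largest at 4 months, at 65.9 ± 11.4, 45.0 ± 13.8, 48.1 ± 7.23 and 49.6 ± 8.28 CPM.

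The same ages in the TG littermates, which express mutant tau, gave the same interval in other mice, whose counts also entered the shared estimate of the spread in the WT test. There 318 genes were called between 4 and 2 months (1.68%), 307 higher and 11 lower, and microglia markers had a median of 0.70, with 16 of 24 called. The matrix lists were nearer 0 in TG mice, with medians of -0.10 for basement membrane, -0.03 for collagen processing and -0.13 for interstitial collagens. The medians of the ER list and of the immediate early genes were 0.01 and -0.07. For no member of the basement membrane and ER lists other than Pdia4, among those named here, did the difference between the TG and WT changes pass an FDR of 0.05, so a difference between genotypes was not detected for them.

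The test of the difference between the TG and WT changes called 147 genes (0.776%). Gpr17 had a mean of 93.8 ± 10.3 CPM in TG mice at 2 months (n = 8) and 109 ± 9.33 CPM at 4 months (n = 8), and its change differed from that in WT mice by 0.50 (FDR = 0.0249). Without the WT 2-month mouse K or T that FDR was 0.0888 or 0.0614. Pdia4 had means of 42.0 ± 2.49 and 43.2 ± 2.93 CPM in TG mice, near the later WT level at both ages, and the changes differed by 0.43 (FDR = 0.0338, and 0.122 without the WT 2-month mouse Q). Fabp7 differed by 0.97 (FDR = 0.0104), Fndc3b by 0.41 (FDR = 0.0363) and Ceacam1 by 0.72 (FDR = 0.0353). Fabp7 passed in all 25 alternatives, while the call of Fndc3b was lost in 7, with an FDR of 0.121 without the WT 2-month mouse K, and that of Ceacam1 in 6, with one of 0.0994 without the WT 4-month mouse S. The calls of Gpr17 and Pdia4 were lost in 2 and 6. Gfap rose in TG mice by 1.74 (FDR = 1.42e-08), a difference of 2.03 from the WT change. 1200009I06Rik and Cndp2 rose in TG mice by 0.68 (FDR = 0.0375) and 0.19 (FDR = 0.0194). Their WT differences were close, at 0.77 and 0.21, but were not called (FDR = 0.281 and 0.238).

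**Figure D5:**
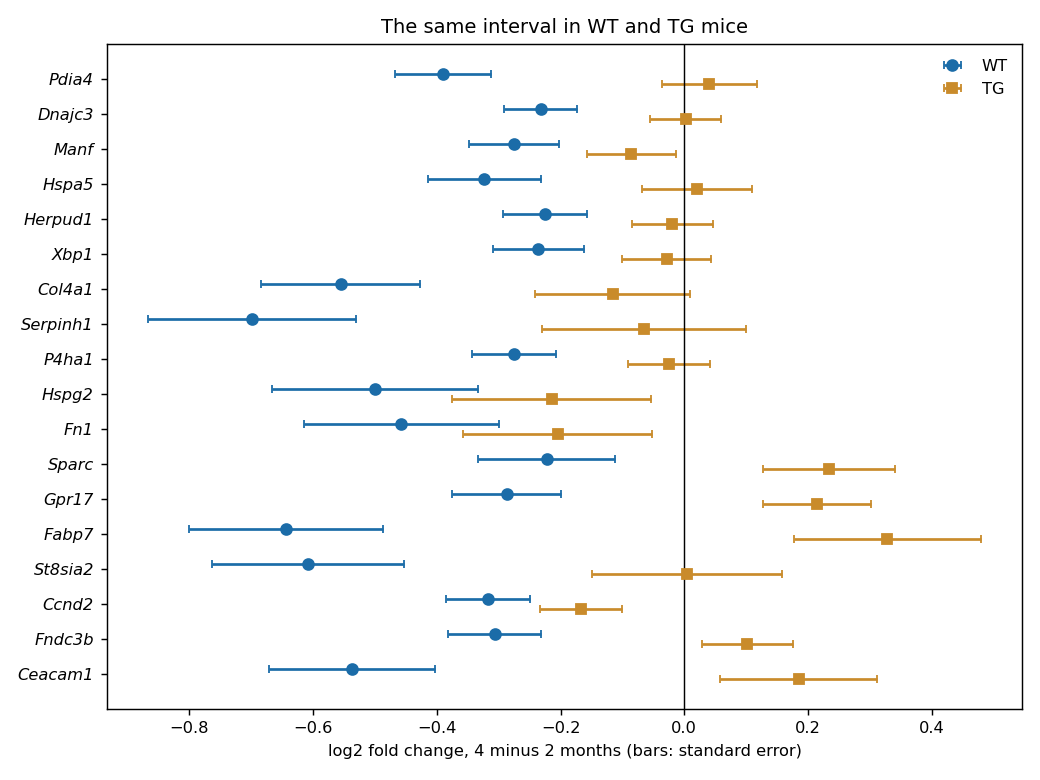
Log2 fold change from 2 to 4 months with its SE for 18 genes in WT and in TG mice. Gpr17, Fabp7 and Pdia4 lie below 0 in WT mice, at -0.29, -0.64 and -0.39, and above 0 in TG mice, at 0.21, 0.33 and 0.04.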

How the data were processed

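Total RNA of the left entorhinal cortex was sequenced as stranded, poly(A)-selected libraries, 1 per mouse. The authors trimmed reads, aligned them to mm10 (GRCm38.p4) with STAR, assigned them with featureCounts and deposited raw counts for 23337 genes and 121 samples, all columns of which matched a sample (0 unmatched). They used DESeq2 1.16.1 in R 3.4.3. Here the 59 mice of the rTg4510 line were fitted together as 8 groups of genotype and age with edgeR 4.0.16 (R 4.3.3), quasi-likelihood F test, robust estimation and TMM scaling, on genes with at least 6 counts in total, and p-values were adjusted by Benjamini-Hochberg over all 18943 genes (threshold 0.05). SE, differences and levels are of these fits and of CPM on TMM-scaled libraries. RPKM used gene lengths.

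Mice of a group were treated as replicates, as the labels give 1 mouse per sample. Samples had been chosen by RNA integrity within each group and randomised to batches by the authors. Members and 35 lists (952 of 959 list genes tested, 26 under another symbol) were chosen with earlier results of these data known. Named genes are up to 4 members per list with the smallest p, a set of maturation markers, and, as no gene was called, the 12 smallest p in each direction, chosen after seeing the values. Some named members are not reported here. Genes that overlap or have near-identical copies may share reads. Alternatives were DESeq2 1.42.0, other scaling, filters and mouse subsets, RNA integrity and mapping as covariates, the letter as a block, and each mouse left out; the endothelial level, the removal of 2 mice and the contrast of later ages were added after seeing the data. The scripts were tested on simulated data.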

Additional observations from a re-analysis of the deposited data

Results flagged for a closer look

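In 314 groups of levels tested for a mouse far from the others of its age, 11 were marked, where chance marks about 1 in 20, and 6 of the 11 were the 2-month mouse P. The value given for each is the gap to the nearest mouse as a share of the range of its group. Mouse P at 2 months was the highest for Cbln2 (0.847), Hapln4 (0.721), Pvalb (0.582), the mean of the postsynaptic scaffold list (0.716) and its place on the principal component with 22.9% of the variance (0.847), and the lowest for Il33 (0.6). The 2-month mouse K was the highest for Pdgfra (0.572) and the 2-month mouse M the lowest for Cirbp (0.621). At 4 months, mouse P was the lowest for Rims2 (0.623), mouse O the lowest for Trappc1 (0.641) and mouse Q the highest for 1200009I06Rik (0.691).

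The change from 2 to 4 months differed between TG and WT mice, by the test of that difference in edgeR, for 6 of the genes named. The TG change minus the WT change on the log2 scale was 0.50 for Gpr17, 0.97 for Fabp7, 0.43 for Pdia4, 2.03 for Gfap, 0.41 for Fndc3b and 0.72 for Ceacam1.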

How the results depend on the processing

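Genes under about 1 CPM are limited by counting. Of the medians of the 35 lists, 3 values moved by more than the spread between mice: the blood list to -0.463 with edgeR's own filter and -0.464 with the endothelial level as a covariate, and the dentate list to 0.00122 without the 2-month mouse P and the 4-month mouse Q.

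Calls between 4 and 2 months were 0 in WT mice in all alternatives except DESeq2 (2) and the omission of single mice (0 to 2). The count at an unadjusted p under 0.05 was 827 with only the 15 WT mice, 2651 without mice P and Q, and 1054 to 2241 with single mice left out, the highest without the 4-month mouse Q. WT at 4, 6 and 8 months against 2 months gave 54 calls with DESeq2, 11 with the 30 WT mice alone, 10 with RNA integrity, 40 with the endothelial level, 9 at an FDR of 0.01, and 10 to 47 with single mice left out (36 without the 2-month mouse S, 47 without M). WT 6 against 4 months gave 27 with DESeq2, 0 with the 30 WT mice alone, 1 with RNA integrity, 1 with the share of uniquely mapped reads, 7 with the endothelial level, 22 without mice P and Q, and 0 at an FDR of 0.01. WT 8 against 6 months gave 1 with DESeq2 and 1 with the endothelial level, and WT 8 against 4 months 6 with DESeq2 and 4 without mice P and Q. TG mice gave 533 calls with the endothelial level and 208 at an FDR of 0.01. The difference between TG and WT gave 74 at an FDR of 0.01 and 116 to 223 with single WT mice left out, the highest without the 4-month mouse Q. The causes of these shifts were not tested.

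The letter of the label did not pair the mice: of 7 letters shared by the ages, 3 had a correlation of deviations over 0.1, the mean was -0.12, and 1 mouse correlated best with its own letter. With the letter as a replicate block, WT 4 against 2 months gave 0 calls, WT 6 against 4 months 1, and the later ages against 2 months 26.

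Differences near 0 changed sign. With the endothelial level they were 0.0496 for Sox10, 0.0578 for Mog, 0.0341 for Mag, 0.0323 for Hapln4, -0.0115 for Gabra2 and 0.109 for Pvalb. Without mice P and Q they were -0.0325 for Pdgfra, -0.0151 for Acan, 0.186 for Hapln4, 0.015 for Grin3a and 0.0947 for Pvalb. With RNA integrity they were 0.014 for Grin2a, 0.105 for Grin2b, 0.0346 for Grin3a, 0.0731 for Dcx and 4.35e-05 for Pvalb. With mapping the difference was 0.000568 for Pvalb, with the letter as a block 0.0159 for Hapln4 and 0.00161 for Pvalb, and for Hapln4 0.00144 with nearly no filter and 0.00526 with only the 15 WT mice. With single mice left out the differences ran from -0.0974 to 0.0261 for Grin2b, -0.0646 to 0.0619 for Grin3a, -0.0479 to 0.147 for Hapln4, -0.188 to 0.0239 for Mag, -0.166 to 0.00887 for Mog, -0.0232 to 0.16 for Pdgfra, -0.0634 to 0.121 for Pvalb and -0.0942 to 0.0118 for Sox10.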

Other observations

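Of 19 circadian clock genes, 2 were lower and 0 higher at an unadjusted p under 0.05, with a median of -0.08, and 4 were lower without the 2-month mouse S. Of 36 neuropeptides and trophic factors, 1 was lower, with a median of -0.05, and 5 were higher without the 2-month mouse P. Of 24 cell division genes, 0 passed in either direction by edgeR, also with a median of -0.08. Choroid plexus and ependymal markers had 1 gene higher and 2 lower among 18, with a median of -0.04. Of all genes, 2.86% were higher and 4.39% lower with all mice. Without the 2-month mouse P 755 were higher, and without the 2-month mouse S 1061 were lower.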
